A study of Mus musculus with 6 samples.

Results

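The B lineage transcription factors are the DNA-binding proteins, with their inhibitors and cofactors, that set up and hold the identity of B cells. The 34 genes described here were grouped by their known roles, with earlier results of these data known, and each was read from the array probe set that carries its symbol alone; every one of the 34 had exactly 1 such probe set, among 19938 genes measured. They were followed in mouse pre-B cells carrying BCR-ABL1, an oncogenic tyrosine kinase that drives the leukaemia labelled Ph+ ALL. Cells of Dusp6 wild-type mice (Dusp6 WT, 3 arrays) were set against cells of Dusp6 knockout mice (Dusp6 KO, 3 arrays). All 6 samples carry BCR-ABL1 and share the strain background C57Bl/6-SV129j, so untransformed cells have no sample here. The labels used here state neither an age nor the deleted part of Dusp6 nor how the oncogene was delivered. Nothing in the labels says that arrays of a genotype came from separate mice or cultures, so the p-values rest on the scatter of these arrays alone, and that scatter may be technical.

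In the textbook scheme, the E proteins (such as E2A, the product of Tcf3) and Ebf1 open the B cell programme in lymphoid progenitors, and Pax5 commits the cells by switching on B cell genes and silencing those of other lineages. PU.1 and Ikaros act earlier and prepare the chromatin, Id proteins bind E proteins and keep them from DNA, and Bach2, Bcl6 and Blimp1 (the product of Prdm1) later govern the passage from B cell to plasma cell. Dusp6 removes the activating phosphates of the kinase ERK, and the comparison asks which of these factors had a different transcript level in transformed cells that lack it.

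Dusp6 itself read 12.36, 12.46 and 12.49 on the wild-type arrays and 9.04, 9.06 and 9.15 on the knockout arrays, where all values are log2 signals. The labels of the genotypes and the signal of the gene thus point the same way, 10.3-fold lower in the knockout (limma adjusted p = 4.3e-10). Over the whole array, the correlation was 0.996 to 0.998 within a genotype and 0.987 to 0.989 between genotypes. Of the 11 B cell precursor markers measured, the antigen receptor chain gene Cd79a read 13.84 to 13.95, the surrogate light chain gene Igll1 14.47 to 14.54, and the recombinase genes Rag1 and Rag2 9.93 to 10.28 and 8.91 to 9.47. Of the neutrophil markers, Mpo read 7.76 to 7.93 over the 6 arrays and S100a8 6.27 to 6.41. Array signals are relative to each probe set, so they do not rank the transcript levels of different genes. Signal percentiles and the words bright and dim refer to probe set signal only.

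Most of the 34 factors differed little between the genotypes, and those that changed went both ways. With limma over all genes and an adjusted p under 0.05 as the rule for a call, 5 members rose in the knockout and 5 fell, against 9.66% of all genes that rose and 10.2% that fell. The 10 called members are 29.4% of the group, against 19.8% of all genes. The members are mostly bright probe sets, whose differences are called more often: among the 29 members at or above the median signal 8 were called (27.6%), against 30.8% of the 9969 genes that bright. The share of called bright members is therefore close to that of genes at or above the median signal. Many members lie far above that median (Pax5 at percentile 97.5), and no closer match of signal was made. The median difference was −0.028 on the log2 scale over the members and 0.0018 over all genes, and the median absolute difference was 0.11 over the members and 0.071 over all genes. None of the 34 reached 2-fold, which 258 of all genes did.

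Values of the 3 knockout arrays lay wholly above those of the 3 wild-type arrays for 9 members and wholly below for 14, against 17.3% and 18.4% of all genes. Both directions together make 67.6% of the members, against 35.7% of all genes, and 72.4% of the 29 bright members, against 50.9% of genes at or above the median signal. Of the 24 uncalled members, 13 showed no overlap, and the like share among all uncalled genes was not counted. In a bulk sample, fewer cells of a type and less RNA per cell cannot be told apart, so a lower signal is not assigned to either.

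**Figure D1:**
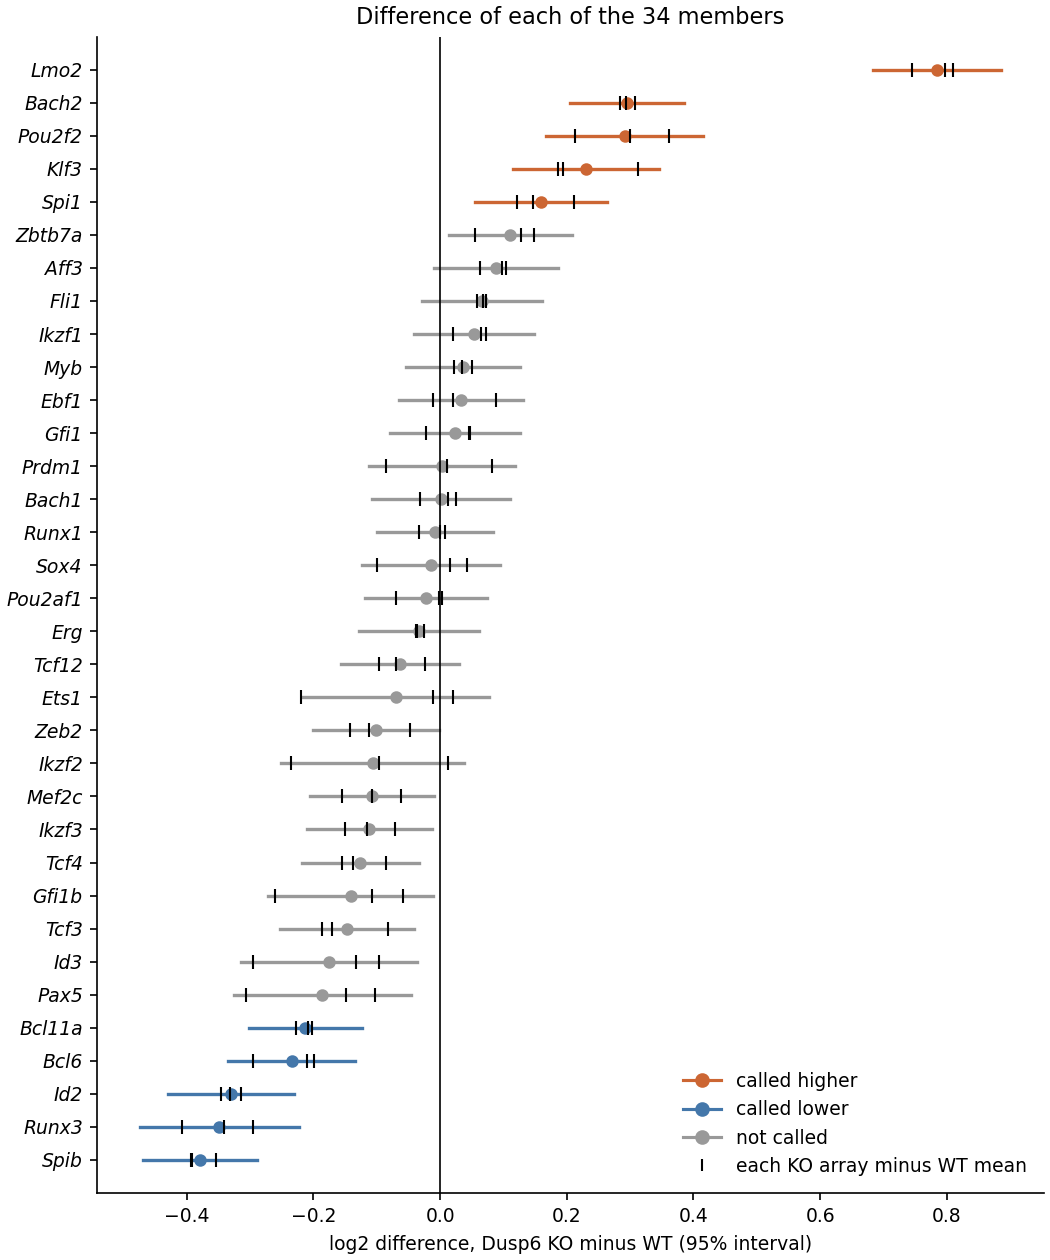
Log2 difference (Dusp6 KO minus WT) of each of the 34 members, with limma's unadjusted 95% interval as a line and each knockout array minus the wild-type mean as a tick. Lmo2 stands at 0.78, the other members lie between −0.38 and 0.29, and 24 members drawn in grey were not called.

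Sequences are shown for the called members with the largest change in each direction that had an entry in the RefSeq promoter table of GRCm38.p6: Bach2 and Pou2f2, which rose, and Spib and Runx3, which fell. Each is the 250 bases before the first listed transcription start, read 5′ to 3′ on the gene's strand. Bach2 lies at chr4:32417185-32417434 on the plus strand, Pou2f2 at chr7:25132461-25132710 on the minus strand, Spib at chr7:44532072-44532321 on the minus strand and Runx3 at chr4:135120395-135120644 on the plus strand. Capitals mark matches, on either strand, to the motifs searched.
Bach2: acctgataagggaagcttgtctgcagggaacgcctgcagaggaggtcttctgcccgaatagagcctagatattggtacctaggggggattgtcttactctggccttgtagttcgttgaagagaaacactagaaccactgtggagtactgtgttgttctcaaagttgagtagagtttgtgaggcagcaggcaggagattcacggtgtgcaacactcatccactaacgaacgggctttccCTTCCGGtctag
Pou2f2: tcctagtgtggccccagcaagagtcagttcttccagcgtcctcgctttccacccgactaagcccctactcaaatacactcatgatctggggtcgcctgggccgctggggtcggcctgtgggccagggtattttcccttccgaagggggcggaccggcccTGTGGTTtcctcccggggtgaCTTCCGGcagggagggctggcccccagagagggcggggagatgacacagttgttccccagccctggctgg
Spib: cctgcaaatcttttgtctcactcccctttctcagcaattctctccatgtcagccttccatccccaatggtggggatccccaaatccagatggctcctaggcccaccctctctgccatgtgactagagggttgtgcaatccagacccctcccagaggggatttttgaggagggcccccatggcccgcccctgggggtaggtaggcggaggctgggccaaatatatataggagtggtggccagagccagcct
Runx3: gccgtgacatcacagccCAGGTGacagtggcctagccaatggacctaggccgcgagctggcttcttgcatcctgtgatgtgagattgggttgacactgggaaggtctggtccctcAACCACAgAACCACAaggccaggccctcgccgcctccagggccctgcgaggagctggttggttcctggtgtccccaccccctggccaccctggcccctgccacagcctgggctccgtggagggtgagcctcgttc

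The motifs searched were an Ets motif (CCGGAAG), an E-box of the E proteins (CAGGTG), a Runx motif (TGTGGTT), an octamer (ATGCAAAT) and an AP-1 motif (TGANTCA), chosen with the array results known, and a match is a description, not a binding site. Of the 34 members, 27 had a window, and Ikzf2, Ikzf3, Lmo2, Fli1, Ets1, Tcf4 and Spi1 had none. The Ets motif stood in the windows of 3 members, Bach2, Pou2f2 and Tcf3 (11.1%, against 7.05% of the first windows of 27025 genes). It began 12 bases before the start of Bach2 and 70 before that of Pou2f2. The E-box was found for Gfi1, Prdm1, Runx1 and Runx3 (14.8%, against 17.1% of genes) and the Runx motif for Ebf1, Pou2f2 and Runx3 (11.1%, against 4.46%). The AP-1 motif was found for Prdm1 (3.7%, against 6.87%), and the octamer for 0 of the 27 members, against 1.61% of genes. In the window of Spib these letters were not found.

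Neither Ebf1 nor Pax5, which found the B lineage, was called. Ebf1, the pioneer of the B cell programme, read 13.83, 13.87 and 13.86 in wild type and 13.84, 13.94 and 13.87 in knockout, and the groups overlap. Its difference was 0.033 ± 0.044 (SE), with a 95% interval from −0.066 to 0.13 (limma adjusted p = 0.69). Pax5, the commitment factor, read 13.18, 13.25 and 13.12 in wild type against 13.03, 12.88 and 13.08 in knockout. Every knockout array was below every wild-type array, yet the difference of −0.19 ± 0.062 did not pass (limma adjusted p = 0.066). It did pass with each array centred on its median (0.044), with either filter on dim genes (0.023 and 0.037) and with limma's trend and robust options (0.013).

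The E proteins, which bind E-boxes as dimers, all had differences below 0, and 0 of 3 were called. Tcf3 read 12.81, 12.80 and 12.73 in wild type and 12.70, 12.59 and 12.61 in knockout, without overlap (−0.15 ± 0.047; limma adjusted p = 0.056). Like Pax5 it crossed the threshold in some alternatives, among them the fit without knockout replicate 1 (−0.18; adjusted p = 0.032). Tcf4, read at 12.31, 12.29 and 12.31 against 12.15, 12.22 and 12.17, differed by −0.13 ± 0.041 (adjusted p = 0.063). It passed with either filter on dim genes (0.020 and 0.036) and with trend and robust options (0.013). Tcf12 differed by −0.064 ± 0.041 (adjusted p = 0.36).

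Of their inhibitors, Id2 fell and Id3 did not pass. Id2 fell 1.26-fold, from 10.67, 10.57 and 10.59 on the wild-type arrays to 10.30, 10.27 and 10.28 on the knockout arrays (−0.33 ± 0.044; limma adjusted p = 0.00057). The knockout values are tight and lie well clear of the wild-type values. Id3 read 10.93, 11.07 and 11.01 in wild type and 10.90, 10.71 and 10.87 in knockout. Its groups are adjacent without overlapping, and the difference of −0.18 ± 0.062 was not called (adjusted p = 0.082), though it passed with either filter on dim genes (0.031 and 0.047) and with trend and robust options (0.036). Whether Id2 and Id3 differ in their response was not tested.

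The Ikaros family of zinc finger proteins, which restrain the proliferation of large pre-B cells, had 0 of 3 genes called. Ikzf1 (Ikaros) read 12.53, 12.47 and 12.48 in wild type against 12.56, 12.51 and 12.56 in knockout, with overlap, and its difference was 0.053 ± 0.042 (limma adjusted p = 0.46). Ikzf3 (Aiolos), which follows pre-B cell receptor signals, was lower on all 3 knockout arrays (−0.11 ± 0.044; adjusted p = 0.11), and passed with the filter at the median signal (0.045) and with trend and robust options (0.027). Ikzf2 (Helios), a dim probe set here, differed by −0.11 ± 0.064 with overlapping groups (adjusted p = 0.32).

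Among Ets factors, the closely related Spi1 and Spib moved in opposite directions. Spib, which encodes Spi-B, an Ets factor of lymphoid cells that shares DNA sites with PU.1, had the largest decrease of the group. It read 12.89, 12.85 and 12.88 in wild type and 12.48, 12.48 and 12.52 in knockout, a 1.30-fold fall (−0.38 ± 0.040; limma adjusted p = 0.00012). Spi1, which encodes PU.1 itself, read 11.99, 11.95 and 11.89 in wild type and 12.09, 12.16 and 12.06 in knockout. It rose by 0.16 ± 0.046 (adjusted p = 0.039), but the call was lost when any 1 array was left out (adjusted p from 0.051 to 0.138), with centred arrays (0.056), with every probe set tested (0.083) and with the replicate block (0.063).

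The other Ets members were not called. Fli1, shared with megakaryocytes and endothelium, differed by 0.066 ± 0.042, with the 3 knockout arrays just above the wild-type arrays (limma adjusted p = 0.35). Its near relative Erg, a stem cell factor, read 12.47, 12.50 and 12.41 against 12.42, 12.42 and 12.43, with overlap (−0.033 ± 0.042; adjusted p = 0.67). Ets1 read 11.43, 11.52 and 11.46 in wild type and 11.46, 11.25 and 11.49 in knockout. Knockout replicate 2 alone was low, and the difference of −0.070 ± 0.065 (adjusted p = 0.54) became 0.0046 without it.

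Of the Runx factors, which bind DNA together with Cbfb, Runx3 fell and Runx1 was not called. Runx3 read 11.28, 11.15 and 11.11 in wild type and 10.88, 10.77 and 10.84 in knockout, a 1.27-fold fall without overlap (−0.35 ± 0.055; limma adjusted p = 0.0017). Runx1, which is required early in B cell development, read 13.01, 13.03 and 12.98 against 13.02, 13.01 and 12.98 (−0.0084 ± 0.041; adjusted p = 0.92). The 95% interval of Runx1, from −0.10 to 0.083, does not reach the change of Runx3. Cbfb differed by 0.023 (adjusted p = 0.77).

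Of the repressors that steer mature B cell fates, Bach2 rose and Bcl6 fell. Bach2, which holds back Prdm1 and the plasma cell programme, read 11.94, 11.99 and 11.94 in wild type and 12.26, 12.24 and 12.25 in knockout, a 1.23-fold rise (0.29 ± 0.040; limma adjusted p = 0.00064). The related Bach1, a haem-regulated repressor, read 10.52, 10.56 and 10.42 against 10.51, 10.47 and 10.53. Bach1 therefore overlapped fully, with a difference of 0.0018 ± 0.048 (adjusted p = 0.99).

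Bcl6, which protects pre-B cells from DNA damage signals, read 8.54, 8.57 and 8.51 in wild type and 8.34, 8.25 and 8.33 in knockout (−0.23 ± 0.045; limma adjusted p = 0.0048). All 3 knockout arrays were lower, by 1.18-fold on average, in a probe set below the median signal. Prdm1, dim on all arrays, read 7.71, 7.67 and 7.73 against 7.79, 7.62 and 7.72, with no separation (0.0024 ± 0.051; adjusted p = 0.98). Zbtb7a (LRF), a relative of Bcl6 that supports B over T cell fate, was higher on each knockout array (0.11 ± 0.043) but not called (adjusted p = 0.11), though it passed with repeated quantile normalization (0.048) and with the filter at the median signal (0.043).

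Pou2f2, the octamer-binding factor Oct-2 of B cells, rose 1.22-fold. It read 8.77, 8.91 and 8.83 in wild type and 9.20, 9.05 and 9.14 in knockout, without overlap (0.29 ± 0.055; limma adjusted p = 0.0046). Its coactivator gene Pou2af1 (OCA-B) overlapped between genotypes at 13.72, 13.68 and 13.74 against 13.71, 13.72 and 13.64 (−0.022 ± 0.042; adjusted p = 0.79). The repressors Gfi1 and Gfi1b, which bring lysine demethylase complexes to DNA, were not called: Gfi1 differed by 0.024 with overlap (adjusted p = 0.79), and Gfi1b by −0.14 without overlap (adjusted p = 0.13).

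**Figure D2:**
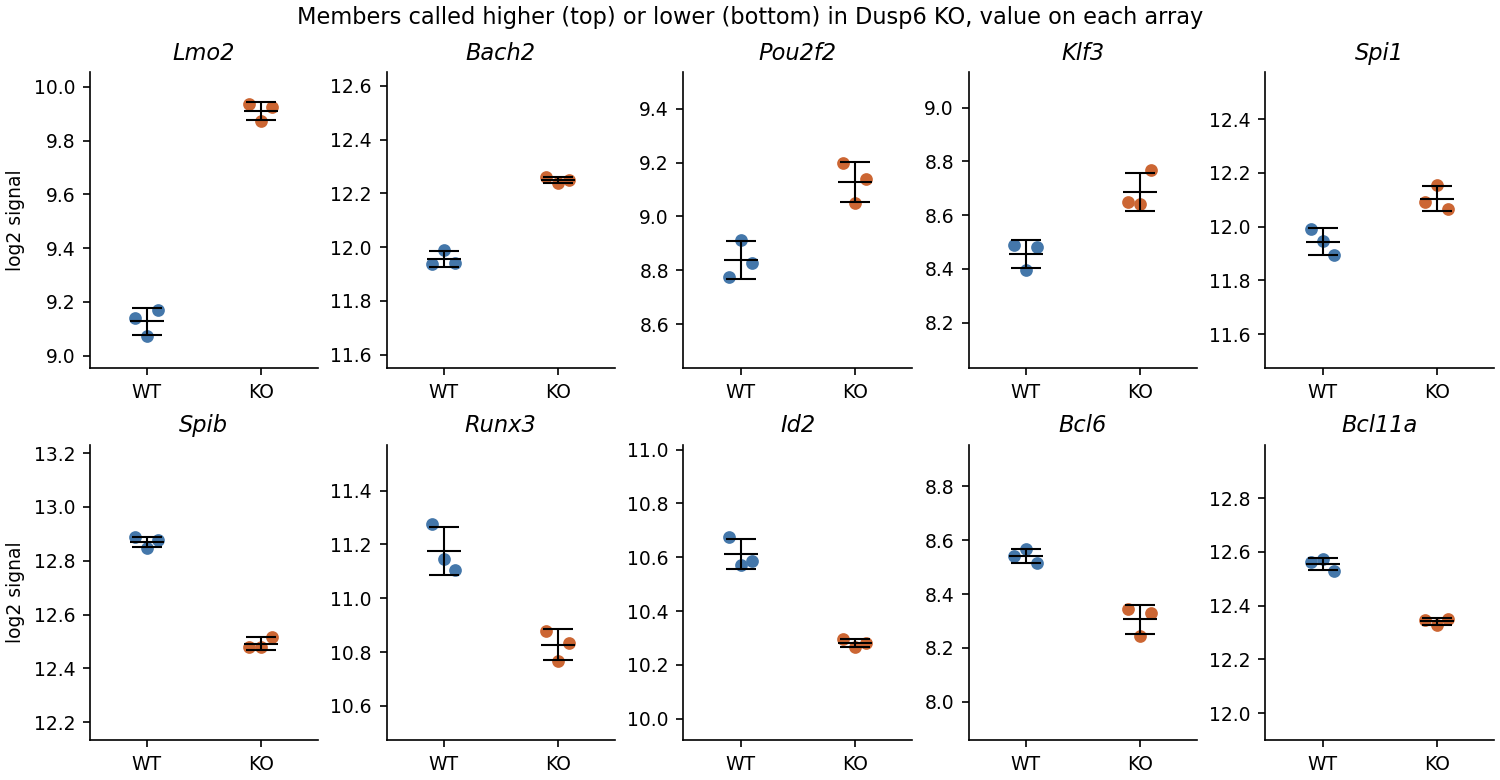
Log2 signal of the 10 called members on each array, with 3 points for Dusp6 WT and 3 for Dusp6 KO, a bar for the mean and whiskers for the SD; every panel spans the same height on its axis. The groups do not overlap in any of the 10 panels, and the step of Lmo2 (9.13 to 9.91) exceeds the others.

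Lmo2 showed the largest change of the group. Its product is a bridging protein without DNA binding of its own that links basic helix-loop-helix and GATA factors in stem and progenitor cells. It read 9.14, 9.07 and 9.17 on the wild-type arrays and 9.94, 9.87 and 9.93 on the knockout arrays, a 1.72-fold rise (0.78 ± 0.045; limma adjusted p = 1.8e-06). The 3 knockout values sit close together, and the difference stayed between 0.76 and 0.81 in all alternatives run. That range comes from renormalizing, centring or leaving out arrays, since the other settings cannot change the difference of a member. Of the called genes, 10.2% had a difference at least as large in size. Its binding partner gene Lyl1 read 12.25, 12.31 and 12.16 in wild type and 12.15, 11.93 and 12.00 in knockout, with an adjusted p of 0.047 in limma; the call was lost without wild-type replicate 1 or 2 (0.12 and 0.15), without knockout replicate 2 or 3 (0.15 and 0.13), with the replicate block (0.060) and with every probe set tested (0.12). Ldb1, which binds Lmo2 and brings distant elements together, differed by −0.076 (adjusted p = 0.28), and Tal1 by 0.015 (adjusted p = 0.91).

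Other factors shared with progenitors changed less. Bcl11a, needed for the earliest B cell precursors, read 12.56, 12.57 and 12.53 in wild type and 12.35, 12.33 and 12.35 in knockout, a fall of 1.16-fold without overlap (−0.21 ± 0.040; limma adjusted p = 0.0043). Myb, which sustains pro-B cells, differed by 0.036 ± 0.040 (adjusted p = 0.61) and Sox4, a survival factor of pro-B cells, by −0.014 ± 0.048 (adjusted p = 0.89). Mef2c, a target of MAP kinases that promotes the lymphoid over the myeloid fate, was lower on each knockout array (−0.11 ± 0.043) and not called (adjusted p = 0.12), though it passed with trend and robust options (0.050, just under the threshold before rounding).

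Klf3, a zinc finger repressor of the Krüppel-like family, rose. It read 8.49, 8.39 and 8.48 in wild type against 8.65, 8.64 and 8.77 in knockout (0.23 ± 0.051; limma adjusted p = 0.011). The groups are separate, in a probe set below the median signal. Zeb2, a zinc finger and homeobox repressor, was lower (−0.10 ± 0.044; adjusted p = 0.16) and Aff3, a nuclear protein of lymphoid cells, higher (0.088 ± 0.043; adjusted p = 0.21) on each knockout array, and neither passed.

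The 24 members that were not called had differences from −0.19 to 0.11, of which 15 were below 0 and 9 above, and 14 were under 0.1 in size. The 95% intervals of single members reached between 0.089 and 0.147 to either side, so a change of 2-fold lies outside the interval of each of the 34, while shifts of a few percent could not be resolved with 3 arrays a genotype.

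**Figure D3:**
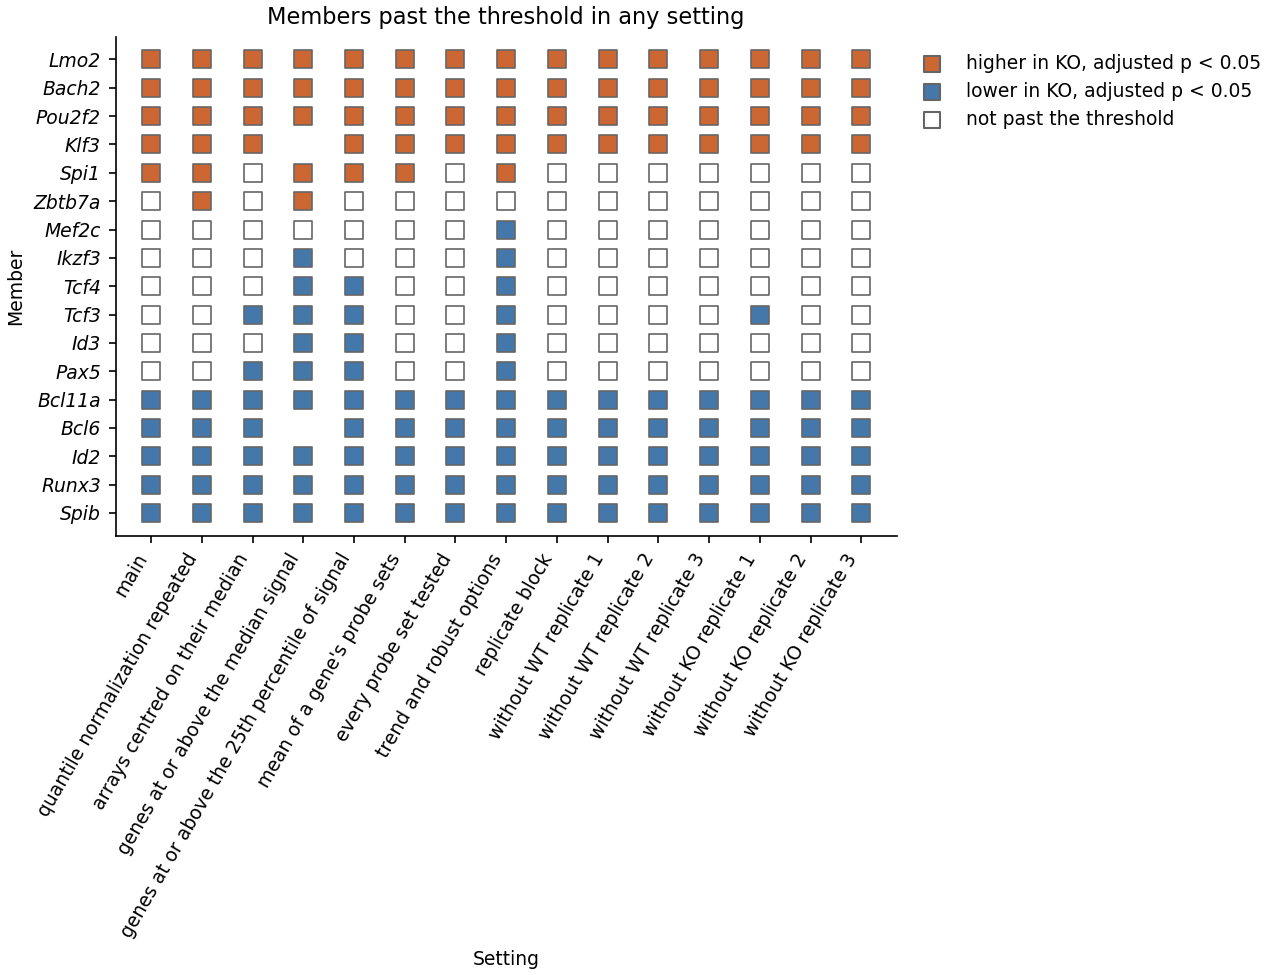
Calls of the 17 members that passed an adjusted p of 0.05 in any setting, with the settings along the horizontal axis and an empty place where a filter removed the gene. Lmo2, Bach2, Pou2f2, Klf3, Bcl11a, Bcl6, Id2, Runx3 and Spib were called wherever they were tested, Spi1 in 5 of 14 alternatives, and Pax5, Tcf3, Tcf4, Id3, Ikzf3, Mef2c and Zbtb7a in some alternatives only.

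Larger changes were found for some genes of a list of other transcription factors of B cell precursors. That list was chosen with earlier results of these data known, so it cannot show that such factors change more than the members. Of 21 such genes, 6 rose and 4 fell, with a median difference of −0.0067 (0.0018 over all genes). Hhex, a homeobox factor required early in lymphoid development, read 9.52, 9.55 and 9.53 in wild type and 11.15, 11.23 and 11.18 in knockout (1.66 ± 0.042; limma adjusted p = 7.1e-09). Bhlhe41, a repressor known from B-1 cells, rose by 1.58 ± 0.042 (adjusted p = 9.4e-09). Zfp521, a zinc finger protein that inhibits Ebf1, fell by 1.55 on the log2 scale, from 9.57, 9.69 and 9.61 to 8.15, 7.94 and 8.13 (adjusted p = 1.9e-07). Meis1, a stem cell homeobox gene with a dim probe set here, fell by 0.54 (adjusted p = 0.00031). The values of these 4 genes do not overlap between genotypes, and each is larger in size than that of every member except Lmo2, which exceeds Meis1.

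Partner proteins and corepressors of the members moved little: of 18, Bcor, a corepressor of Bcl6, rose by 0.22 (limma adjusted p = 0.015) and Lyl1 fell, as given above, and the median difference was 0.019. Bcor lost its call without wild-type replicate 1 or 3 or knockout replicate 3 (adjusted p = 0.059, 0.053 and 0.060). Factors of other lineages gave 0 that rose and 1 that fell of 16, with a median of −0.0045. That gene was Mitf (−0.19; adjusted p = 0.045), which lost the call with the mean of its probe sets (0.13), with the replicate block (0.096), with every probe set tested (0.11) and without wild-type replicate 2 or 3 or knockout replicate 2 or 3 (0.13 to 0.14). The probe set of Mitf is dim (percentile 22.8 of mean signal). The myeloid factor Cebpa differed by −0.081 and the T cell factor Gata3 by 0.0058, and neither was called.

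Genes that the founding factors are known to switch on went both ways. Of 18 genes activated by Pax5, Ebf1 or E2A, 4 rose and 6 fell (median −0.043). The inhibitory receptor gene Cd72 rose by 1.26 and the kinase gene Blk by 0.70, whereas the recombinase gene Rag2 fell by 0.43 and the surrogate light chain gene Vpreb1 by 0.27 (limma adjusted p = 3.2e-06, 3.8e-06, 0.00083 and 0.016). Unlike Rag2, the recombinase gene Rag1 rose, by 0.20 (limma adjusted p = 0.027). Vpreb1 lost its call without knockout replicate 2 or 3 (adjusted p = 0.061 and 0.055) and with every probe set tested (0.061). Cd79a (0.0040), Cd79b (−0.064) and Igll1 (−0.016) were not called. Of 7 genes repressed by Pax5, Flt3, a cytokine receptor gene of early progenitors, rose by 0.62 (adjusted p = 2.3e-05) and 0 fell, with a median of 0.0091. Notch1 differed by 0.11 (adjusted p = 0.38) and Csf1r by 0.0091 (adjusted p = 0.92).

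Genes tied to the other members also split. Of 9 genes activated by PU.1 or Spi-B, 3 rose and 2 fell (median 0.0091): the inhibitory Fc receptor gene Fcgr2b rose by 1.07, Blk by 0.70, the receptor gene Il7r fell by 0.31 and the adaptor gene Blnk by 0.23. Of 10 genes repressed by Ikaros or Aiolos, 2 rose and 4 fell (median −0.056). Dntt, the polymerase of junctional diversity, fell by 1.42, the catenin gene Ctnnd1 by 1.04 and Vpreb1 by 0.27, while the cyclin gene Ccnd2 rose by 0.48. Of 10 genes repressed by Bcl6, 4 rose and 2 fell (median 0.012). Those that rose include Cdkn2a (1.42), which encodes the tumour suppressors of the Arf locus, the AP-1 partner gene Batf (0.52) and again Ccnd2 (0.48), and the checkpoint kinase gene Chek1 fell by 0.28.

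For Bach1, which was not called itself, 0 of 10 repressed genes rose and 2 fell (median −0.020), the haem oxygenase gene Hmox1 by 0.23 and the cystine transporter gene Slc7a11 by 0.36. Both probe sets lie below the median signal, and that of Slc7a11 is dim (percentile 11.5 of mean signal). Of 6 plasma cell genes, 2 rose and 1 fell (median 0.050). Jchain, the joining chain of secreted antibodies, rose by 0.96 and Xbp1, a factor of secretory cells, by 0.46, while the syndecan gene Sdc1 fell by 0.28 and lost its call without wild-type replicate 1 or 3 (limma adjusted p = 0.058 and 0.061) or with every probe set tested (0.073). Irf4 differed by −0.0067, and the probe set of Jchain is dim (percentile 33.0 of mean signal). Over all genes 19.8% were called, and 30.8% of genes at or above the median signal. The lists were not matched for signal. Mean log2 signals on the wild-type arrays were 12.21 to 12.25 for genes repressed by Ikaros or Aiolos. They were 8.16 to 8.23 for factors of other lineages. Called genes made 47.6% of the other factors, 11.1% of partners and 6.25% of factors of other lineages. The share was 55.6% of genes activated by Pax5, Ebf1 or E2A and by PU.1 or Spi-B, and 14.3% of those repressed by Pax5. It was 60% of genes repressed by Ikaros or Aiolos and by Bcl6, 20% for Bach1 and 50% of plasma cell genes. The lists share some genes. Each of these lists shares the fit and the arrays with the members, and the link between any factor and any listed gene was not tested.

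**Figure D4:**
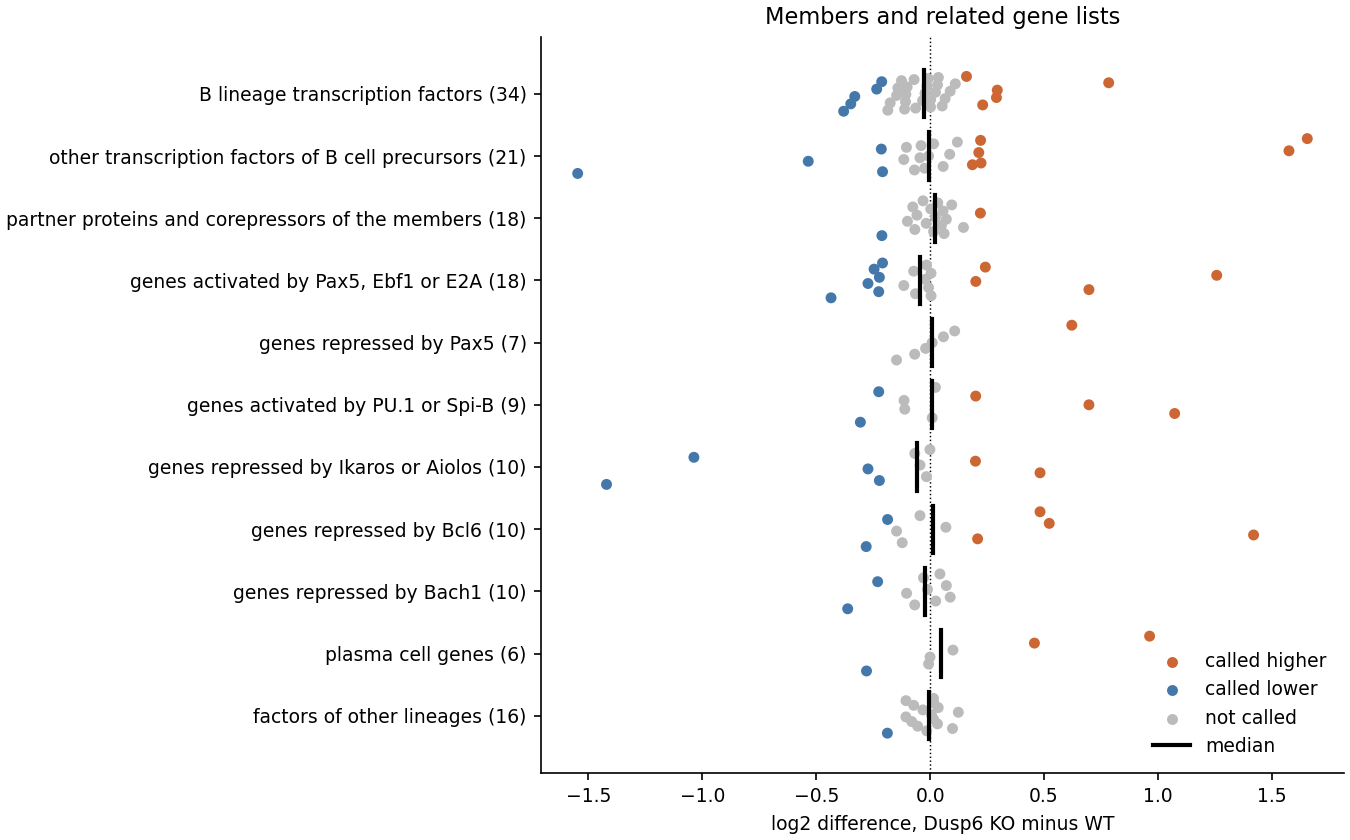
Log2 differences (Dusp6 KO minus WT) of the 34 members and of the related lists, one point a gene, coloured by call, with the median of each list as a black bar and the number of measured genes in brackets. Medians lie between −0.056 and 0.050 in all 11 rows, while Hhex (1.66) and Zfp521 (−1.55) mark the ends of the axis.

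Some genes listed as markers of other stages and cell types also differed. Whether B lineage cells themselves express the listed myeloid, T and NK cell genes was not examined. Of 7 mature B cell markers 5 rose and 1 fell. Their mean log2 signal was 7.96 to 8.09 on the wild-type arrays and 8.60 to 8.68 on the knockout arrays. Cxcr5 rose by 1.45, Cd22 by 1.33, Ccr7 by 0.94 and Ms4a1, a dim probe set here, by 0.85. Cr2 fell by 0.25, and Fcer2a was not called (−0.072). Of 11 B cell precursor markers 2 rose and 5 fell, with mean signals of 12.55 to 12.56 and 12.44 to 12.46. Myeloid and mast cell genes (20 markers) gave 3 that rose and 1 that fell, with means of 7.51 to 7.55 and 7.84 to 7.85. The other 16 were not called, and the median difference over the 20 was 0.016. The 3 that rose were Ly86 (4.31), Fcgr3 (1.72) and Lyz2 (0.70), and Csf2ra fell by 0.59, while Mpo (0.017), Elane (0.040) and Csf1r (0.0091) were not called. Of 15 T and NK cell markers 4 rose and 2 fell (means 7.77 to 7.79 and 7.87 to 7.94), and Cd2 rose by 1.02, Klrd1 by 0.61 and Cd5 by 0.26, Lat fell by 0.44, and Cd3e was not called (0.11). Of 8 erythroid and megakaryocyte markers 1 rose and 0 fell (means 7.55 to 7.63 and 7.55 to 7.60), Car1 by 0.16, a call lost with every probe set tested, with the replicate block and without any 1 array but knockout replicate 3 (adjusted p of 0.051 to 0.11). Called markers made 85.7%, 63.6%, 20%, 40% and 12.5% of these lists in the order given, against 19.8% of all genes. The part of such cells or stages in the differences of the members was not tested.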

How the data were processed

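Total RNA of 6 samples (3 Dusp6 WT, 3 Dusp6 KO, grouped by their titles) was measured on Affymetrix arrays. The authors deposited log2 signals, 1 value for each probe set on each array. RMA and Partek 6.5 are named in the submitters' processing notes. RMA corrects background, equalises array distributions and summarises probes, which narrows differences of dim probe sets. Its version and settings are not stated in those notes. Values ran from 3.23 to 14.8 with array medians of 8.38 to 8.42, and no further normalization was applied. With arrays, precision depends on how many there are, and the median SE of a difference was 0.051.

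The platform annotation names a single gene for 21789 of the 35556 probe sets and several for 1621, and 12146 were unnamed here. Each of the 19938 genes was read from its probe set with the highest mean over the 6 arrays. Differences (Dusp6 KO minus WT) were tested by lmFit and eBayes of limma 3.58.1 (R 4.3.3) with genotype as the term, Benjamini-Hochberg adjusted over all genes, and called at an adjusted p under 0.05. ± marks limma's SE. The procedure was run on simulated data with independent noise on each array. Such noise cannot show whether the scatter of the real arrays is technical.

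The members and lists were chosen with earlier results of these data known. Called members, Pax5, Ebf1, Tcf3, Ikzf1 and relatives of called members are given array by array (Tcf4, Erg, Ets1, Prdm1 and list genes given so were picked after their values were seen), and up to 4 called genes of each list are named by size. Counts over lists cover the genes analysed here. List genes named without a call, and Cbfb, Ldb1 and Tal1, were also picked after seeing values. So were Cr2 and Rag1, called genes named beyond the 4 largest of their lists, and the alternatives were not run for them. The alternatives were 14 settings: repeated quantile normalization, centring, filters on dim genes, the mean of a gene's probe sets, every probe set tested, trend and robust options, the replicate number as a block, and each array left out.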

Additional observations from a re-analysis of the deposited data

How the results depend on the processing

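Of the 10 called members, 9 were called in every setting that tested them, and Spi1 was the exception. With a single probe set for each member, the mean of a gene's probe sets could not change a member's values. The filters, the test of every probe set, the trend and robust options and the replicate block change only p-values, not differences. Called members numbered 4 to 6 higher and 5 to 11 lower over the 14 alternatives. Those called lower came to 9 under either filter on dim genes, where fewer genes are tested, and to 11 with trend and robust options; the cause was not tested. Leaving out 1 array gave 4 higher and 5 to 6 lower, and over all genes 1491 to 1730 higher and 1512 to 1959 lower. The replicate block gave 4 members higher and 5 lower (all genes 1681 and 1764). The labels do not say whether the replicate numbers pair the samples. Deviations of same-numbered arrays correlated at 0.0098, −0.12 and 0.053, and those of differently numbered arrays at −0.15 to 0.13. With so few arrays these values cannot decide it.

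Sign changes were met in 7 members, none called and each within 0.070 of 0. Prdm1 became −0.013 with repeated quantile normalization and −0.0093 with centred arrays, and Bach1 −0.0098 with centred arrays. Without 1 array the ranges were −0.037 to 0.032 for Bach1, −0.037 to 0.046 for Prdm1, −0.0029 to 0.046 for Gfi1, −0.023 to 0.0040 for Runx1, −0.043 to 0.029 for Sox4, −0.12 to 0.0046 for Ets1 and −0.037 to 0.00072 for Pou2af1. The cause was not tested. Alternatives for genes outside the members were added after seeing the data; 34 of 40 such genes were called wherever tested, the exceptions being Bcor, Lyl1, Vpreb1, Sdc1, Mitf and Car1.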
